A study of Homo sapiens with 12 samples.

Results

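The clustered histone genes that cells express while replicating their DNA were read from 12 libraries of HepG2 cells, a human liver cancer line. They are the protein-coding genes whose GENCODE 29 name begins with HIST1H, HIST2H, HIST3H or HIST4H, and 71 of the 57500 genes counted met that rule. The 71 comprised 6 linker histone H1 genes, 17 H2A, 18 H2B, 15 H3 and 15 H4 genes. The HIST1 cluster on chromosome 6 held 55 of them, the HIST2 cluster on chromosome 1 held 12, the HIST3 cluster on chromosome 1 held 3, and the single HIST4 gene lies on chromosome 12. A further 19 genes with such names are annotated as pseudogenes and were left out.

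The study concerned cyanide made by mammalian cells and its regulatory roles, and changed its level through thiosulfate sulfurtransferase (TST, the mitochondrial enzyme that detoxifies cyanide). WT cells were unmodified HepG2. The shTST cells carried an shRNA against TST, and the overTST cells carried a codon-optimised TST driven by a CMV promoter from a lentiviral vector with blasticidin selection. Each group had 4 libraries, and all of them were grown in the normal culture medium, with no extra glycine. Both modified lines are stably transduced populations, the WT cells are not described as carrying an empty vector, and transduction therefore cannot be told apart from the level of TST.

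Replication-dependent histone genes supply the nucleosome proteins during S phase, when new DNA is packaged. H2A, H2B, H3 and H4 form the nucleosome core, and H1 binds the linker DNA between nucleosomes. Their transcripts have no introns and usually no poly(A) tail: the stem-loop binding protein SLBP holds a hairpin near the 3′ end, and the U7 snRNP guides a cut just after it. Some of these genes can also make longer, polyadenylated transcripts in cells that have stopped dividing, which is why the 3′ end of each gene model matters for what the counts describe.

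The hairpin is shown first because it defines the usual 3′ end of these mRNAs. A search of the GENCODE 29 transcripts of the 71 genes for a 16-base hairpin with a 4-base loop found it in the models of 31 genes. The 4 commonest forms follow, 5′ to 3′ on the mRNA strand in DNA letters, with the loop in capitals.
HIST1H2AC, HIST1H2BG, HIST1H3H, HIST2H2BE and 13 others: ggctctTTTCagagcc
HIST1H2BC, HIST1H2BD, HIST1H2BF, HIST1H3G and HIST3H3: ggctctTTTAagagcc
HIST1H4B, HIST1H4E, HIST1H4H, HIST1H4J and HIST4H4: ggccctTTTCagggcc
HIST1H4I, HIST2H4A and HIST2H4B: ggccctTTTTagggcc
The HIST1H2BG hairpin lies in the last exon at chr6:26216218-26216233 on the minus strand, and the HIST1H3H hairpin at chr6:27810516-27810531 on the plus strand (GRCh38). The forms divide by class: all 8 genes of the last 2 lines encode H4, and none of the first 2 lines holds an H4 gene.

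The promoters are shown because they are what genes of a class share outside the coding sequence. RefSeq promoters (GRCh38.p14) matched 66 of the 71 genes. The 250 bases before the RefSeq start are printed 5′ to 3′ in the direction of transcription for 4 genes on which the later results turn. Capitals mark 4 motifs searched on both strands, namely the TATA box as TATAAA, the box for factor NF-Y as CCAAT, the octamer as ATTTGCAT and an element known from H1 promoters as AAACACA. Adjacent or overlapping motifs run together.
HIST1H1C, chr6:26056471-26056720, minus strand: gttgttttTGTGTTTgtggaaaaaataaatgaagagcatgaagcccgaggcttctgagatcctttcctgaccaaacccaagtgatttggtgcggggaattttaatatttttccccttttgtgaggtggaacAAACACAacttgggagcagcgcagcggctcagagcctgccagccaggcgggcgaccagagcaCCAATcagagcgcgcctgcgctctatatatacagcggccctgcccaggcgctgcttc
HIST1H2BG, chr6:26216689-26216938, minus strand: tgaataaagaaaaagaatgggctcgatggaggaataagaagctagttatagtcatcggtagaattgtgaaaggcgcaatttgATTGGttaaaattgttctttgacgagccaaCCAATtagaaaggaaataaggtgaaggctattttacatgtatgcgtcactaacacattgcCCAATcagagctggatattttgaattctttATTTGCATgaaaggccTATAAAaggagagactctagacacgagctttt
HIST1H3H, chr6:27809801-27810050, plus strand: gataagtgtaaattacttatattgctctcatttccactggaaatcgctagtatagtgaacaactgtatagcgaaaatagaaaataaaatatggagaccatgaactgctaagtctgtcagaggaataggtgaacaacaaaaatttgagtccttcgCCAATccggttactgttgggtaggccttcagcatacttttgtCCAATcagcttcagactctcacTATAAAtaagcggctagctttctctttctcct
HIST2H2AC, chr1:149886668-149886917, plus strand: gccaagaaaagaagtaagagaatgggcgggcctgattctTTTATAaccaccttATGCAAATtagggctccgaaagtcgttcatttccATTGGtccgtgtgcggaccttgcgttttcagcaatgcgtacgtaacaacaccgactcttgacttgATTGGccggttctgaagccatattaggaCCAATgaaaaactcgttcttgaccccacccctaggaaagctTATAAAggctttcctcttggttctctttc
AAACACA was present in 6 of 6 H1 promoters and in 0 of the others matched, against 4.82% of all 35116 promoters. The octamer occurred in 11 of 16 H2A and 14 of 18 H2B promoters, in 1 of 13 H3 promoters and in 0 of 13 H4 promoters, against 1.63% of all promoters. That H3 promoter, of HIST1H3D, has the same RefSeq window as the H2A gene HIST1H2AD (chr6:26199294-26199543). The window lies next to the HIST1H2AD model and outside the HIST1H3D model, so its motifs count in both classes. CCAAT was found in all 6 H1, 16 H2A, 18 H2B and 13 H3 promoters but in 3 of 13 H4 promoters, with 32% of all promoters holding it. TATAAA occurred in 44 of the 66, against 10.7% of all promoters. H2A and H2B genes that stand back to back can have overlapping windows, so a single site can count for both genes. For example, the window of HIST1H2BC (chr6:26123927-26124176) nearly equals that of HIST1H2AC (chr6:26123922-26124171). The only TATAAA found for HIST1H2BC lies on its opposite strand. A match describes the letters in the window and was not tested for binding.

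Total counts per library ran from 22911380 to 45120508, lowest in overTST, and the 4 libraries of a group are stated to be independent replicates. TST itself averaged 49.0 ± 2.59 CPM (counts per 1000000 counts of the library, SD, n = 4) in WT, 34.2 ± 1.62 in shTST and 57.9 ± 4.90 in overTST, and was called lower in shTST (log2 fold change -0.52, SE 0.055, edgeR adjusted p = 3.2e-06) and higher in overTST (0.24, SE 0.062, edgeR adjusted p = 0.00384). The codon-optimised transgene was not measured separately. The libraries held the hepatocyte markers of HepG2: all 10 listed were tested, and albumin averaged 5738 CPM in WT. Against WT 4 were higher and 2 lower in shTST (40% and 20%, against 6.69% and 9.4% of all genes). In overTST 3 were higher and 2 lower (30% and 20%, against 15.7% and 18.2%). Between the lines 6 were higher in shTST and 2 lower (60% and 20%, against 16.9% and 16.1%). Of 10 markers of other cell types, the leukocyte marker PTPRC had 0 counts in WT and overTST, DCN had 0 in WT and KRT5 had 0 in shTST. The 10 summed to 146.8 to 175.2 CPM in WT, 107.9 to 148.4 in shTST and 117.3 to 135.4 in overTST. Most of this was NES, an intermediate filament gene of progenitor cells, at 130.2 CPM in WT, and PDGFRB, a mesenchymal receptor, at 21.8. Of the 5 tested, NES and PDGFRB were lower than WT in shTST (-0.30 and -0.40, edgeR adjusted p = 0.0114 and 0.000494) and in overTST (-0.31 and -0.43, edgeR adjusted p = 0.000441 and 0.000132). PECAM1, an endothelial gene, was higher in overTST (0.60, edgeR adjusted p = 0.00278), at 3.28 against 2.14 CPM. The part of these differences in the histone results was not tested.

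Histone mRNAs were a very small share of every library. The 71 genes together held 18445 counts over the 12 libraries, between 0.00463% and 0.00550% of the counts of a library. Only 3 genes averaged 100 counts or more, 24 averaged between 10 and 100, 19 between 1 and 10, and 25 fewer than 1. The counts of 31 genes were above 0 in all 12 libraries, and 12 genes had 0 counts in every library. A count of 0 allows up to 3 counts, or 0.0665 to 0.131 CPM depending on the library, and this covers counting error only.

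**Figure D1:**
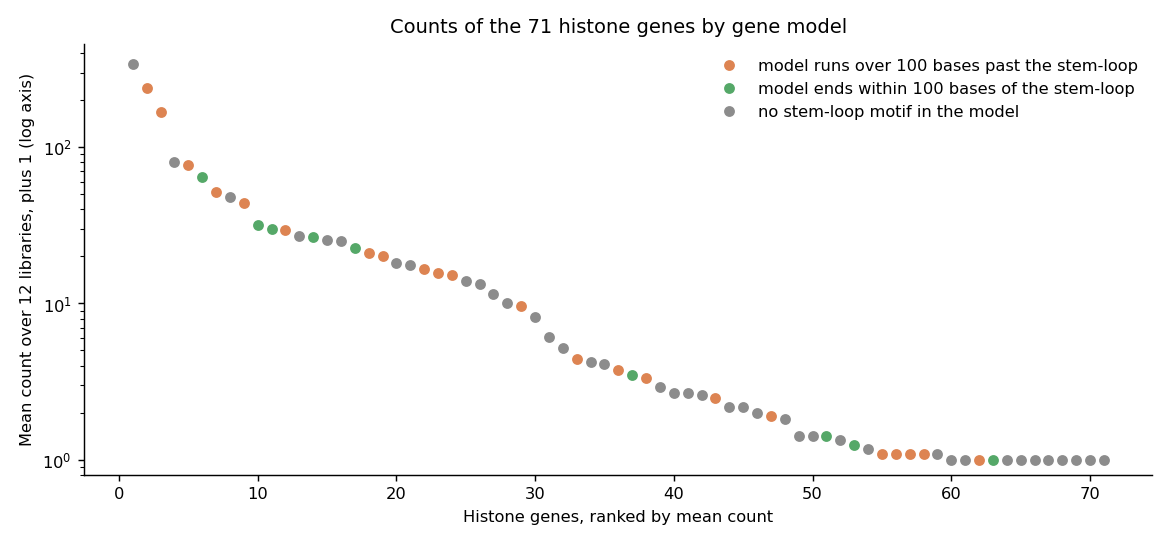
Mean count over the 12 libraries plus 1 (log axis) for each of the 71 histone genes, ranked from highest to lowest. Colour gives whether the model holds a stem-loop and how far the transcripts that hold one run past it. HIST1H1C at 342 counts, HIST1H2AC at 238 and HIST1H3H at 167 lead, and 25 genes average fewer than 1 count.

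The 12 genes at 0 were HIST1H1A, HIST1H1D, HIST1H2AA, HIST1H2AK, HIST1H2BA, HIST1H3D, HIST1H3I, HIST1H4F, HIST1H4G, HIST2H3PS2, HIST3H2A and HIST3H3. For 3 of them, at least 99.5% of the exonic bases also belong to another gene model: HIST1H2AK lies inside HIST1H2BN on the opposite strand, HIST1H3D inside AL031777.3 on the same strand, and HIST2H3PS2 inside 2 other models. Another 8 had neither an overlapping model nor any 50-base stretch shared with another gene. Across all 71 genes, 11 shared at least 97% of their 50-base stretches with another gene, among them the duplicated pairs HIST2H4A and HIST2H4B, HIST2H3A and HIST2H3C, and HIST2H2AA3 and HIST2H2AA4. Those 11 averaged at most 7.17 counts. How reads that match several genes or lie in overlapping models were counted is not given in the sources used here, so the levels of these genes are uncertain.

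The gene models differ in how they end, and the counts are given by that feature. In 22 models some transcript runs more than 100 bases beyond the stem-loop (median exonic length 1902 bases), and 11 of these averaged 10 counts or more. In 9 models every transcript with the stem-loop ends within 100 bases of it, and 5 of these reached 10 counts. The remaining 40 models hold no stem-loop, often because they cover the coding sequence alone (median 393 bases), and 11 of these reached 10 counts. The extended models received 46.0% of all histone counts, those whose stem-loop transcripts end near it 11.3%, and those without it 42.7%. HIST1H2BD gave 765 of the counts of the middle class. Its model of 871 bases runs to chr6:26171349, well past its stem-loop at chr6:26158587-26158602. Some of its counts may therefore lie beyond the stem-loop. A longer model collects more reads, so these shares are not levels per transcript.

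Per kilobase of exonic model, HIST1H1C stood first with 18.1 CPM per kb, followed by HIST2H2AC with 6.86, HIST1H2AC with 4.79, HIST1H3H with 4.54 and HIST1H2BK with 4.22. HIST1H1C encodes a linker histone and took 96.0% of the H1 counts. HIST1H3H took 74.3% of the H3 counts and HIST1H2AC 53.5% of the H2A counts. By contrast the H2B gene with the most counts, HIST2H2BE, held 19.8% of the counts of its class. The H4 gene with the most counts, HIST1H4J, held 24.0%. These shares are not scaled for model length. Per kilobase HIST2H2BE, with a model of 2194 bases, had 1.17 CPM, below HIST1H2BK, and HIST1H2AC stood below HIST2H2AC. HIST1H4J shares 81.2% of its 50-base stretches with other genes, so its lead is uncertain.

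Other RNAs that lack a poly(A) tail were read in the same libraries. Of 21 such RNAs listed (small nuclear, small nucleolar, Y and vault RNAs and other RNA polymerase III products), 3 or fewer were abundant enough to test in any comparison. RN7SK, which regulates transcription elongation, RPPH1, the RNA of RNase P, and RN7SL1, a signal recognition particle RNA, had 0 counts in all 12 libraries. The summed level of the 21 RNAs had a median of 4.27 CPM over the WT libraries, 3.93 over shTST and 6.65 over overTST, of which RN7SL2, a near copy of RN7SL1, averaged 2.94, 2.47 and 4.11. The kind of RNA selection used to build the libraries is not given in the sources used here. Fewer cells in S phase and less histone mRNA per cell cannot be told apart in such bulk RNA.

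**Figure D2:**
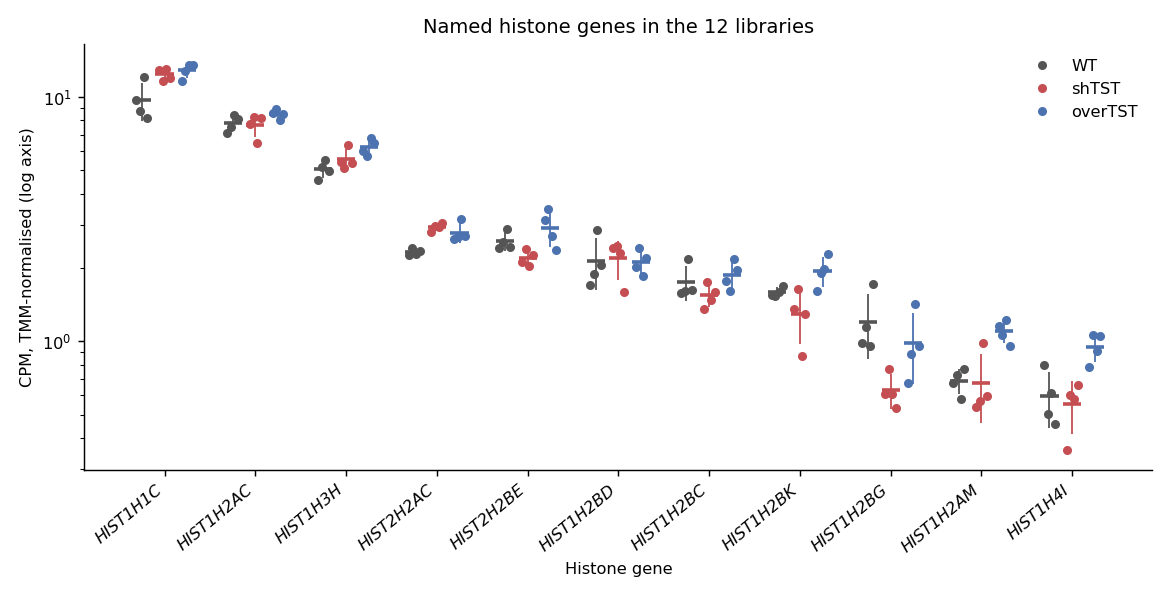
CPM (normalised by edgeR's trimmed mean of M values, log axis) of the 11 named histone genes in each library, with WT in grey, shTST in red and overTST in blue. Points are libraries, horizontal bars are group means and vertical bars are SD with n = 4, and the HIST1H1C points of overTST and shTST lie above all WT points but that of WT replicate 3.

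The shTST cells, with less TST mRNA, were compared with WT to ask whether histone genes differed. Few did. The linker histone gene HIST1H1C rose and the core histone gene HIST1H2BG fell, and the other 26 tested genes did not pass. The test needed enough counts, so it covered 28 of the 71 genes, and the other 43 were not tested. In the same comparison 6.69% of all 14584 tested genes were called higher and 9.4% lower, so 1 of 28 in each direction was not above that background.

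HIST1H1C (ENSG00000187837, chr6:26055787-26056428, minus strand) had 9.72, 8.72, 12.02 and 8.22 CPM in the 4 WT libraries, 12.9, 11.6, 13.0 and 11.95 in shTST, and 11.6, 12.8, 13.5 and 13.5 in overTST. WT replicate 3 was the highest of the WT libraries and overlapped both other groups. Against WT the gene was 1.29-fold higher in shTST (log2 fold change 0.36, SE 0.098, edgeR adjusted p = 0.014). Without WT replicate 4 the difference was 0.30 with an adjusted p of 0.0505 by edgeR. The gene was 1.33-fold higher in overTST (0.41, SE 0.10, edgeR adjusted p = 0.00318). With a correction for gene length in the fit, the difference in overTST was 0.23 with an edgeR adjusted p of 0.0791, and that in shTST was 0.32 with 0.015. Between the 2 modified lines it differed by -0.05 on the log2 scale, with an approximate 95% interval of -0.24 to 0.14. The 2 comparisons with WT share the same WT libraries. None of its exonic bases overlap another model and none of its 50-base stretches recur elsewhere.

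The other H1 gene tested, HIST1H1E, averaged 0.502 ± 0.228 CPM (SD, n = 4) in WT, 0.386 ± 0.130 in shTST and 0.398 ± 0.201 in overTST and was not called. HIST1H1B averaged 1.17 counts, and HIST1H1T, known as the testis-specific H1, had 1 count in all. The summed level of the 6 H1 genes, nearly all from HIST1H1C, was 10.2 ± 1.69 CPM in WT (n = 4), 12.8 ± 0.662 in shTST and 13.2 ± 0.777 in overTST.

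HIST1H2BG (ENSG00000273802, chr6:26215159-26216692, minus strand) encodes a core H2B. Its counts were 32, 52, 28 and 56 in WT, 17, 23, 21 and 16 in shTST, and 18, 21, 36 and 21 in overTST. In CPM these were 0.984, 1.14, 0.951 and 1.72 in WT and 0.608, 0.771, 0.609 and 0.531 in shTST. Each shTST library lay below each WT library. The level in shTST was 0.526-fold that in WT (log2 fold change -0.93, SE 0.25, edgeR adjusted p = 0.0148). Without WT replicate 4, the highest, it was -0.71 with an edgeR adjusted p of 0.081, and without shTST replicate 4 it was -0.85 with 0.0509. In overTST the gene averaged 0.984 ± 0.316 CPM and was not called against WT (log2 fold change -0.29, SE 0.26, edgeR adjusted p = 0.427). The direct difference of shTST from overTST was -0.64 (SE 0.28, edgeR adjusted p = 0.0858).

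Overexpression of TST was compared with WT in the same way. HIST1H1C, HIST1H2AM and HIST1H3H rose, and 0 of the 27 tested histone genes fell. By edgeR 4 of the 27 lay below an unadjusted p of 0.05, against 6221 of all 14421 genes tested. Of all 14421 genes tested, 15.7% were called higher and 18.2% lower, and the 3 of 27 called higher made up 11.1%. The median log2 fold change of the 27 genes was 0.15, against 0.00 for all genes. Short genes in general were higher in overTST: the 905 tested genes of up to 1000 exonic bases had a median of 0.21, and 155 of them were called higher against 21 lower. With a correction for gene length in the fit, 0 of the 27 histone genes were called in either direction by edgeR and their median was -0.03.

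HIST1H3H (ENSG00000278828, chr6:27810064-27811300, plus strand), which encodes a canonical H3, had 4.58, 5.16, 5.50 and 4.97 CPM in WT, 5.40, 5.13, 6.38 and 5.34 in shTST, and 6.01, 5.72, 6.75 and 6.46 in overTST. The overTST libraries all lay above the WT libraries. The rise was 1.23-fold (log2 fold change 0.30, SE 0.11, edgeR adjusted p = 0.0359). With the length correction it was 0.13 with an edgeR adjusted p of 0.413. In shTST the difference from WT was 0.14 (SE 0.11, edgeR adjusted p = 0.401). The direct difference of the 2 lines was -0.16, with an approximate 95% interval of -0.37 to 0.05.

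HIST1H2AM (ENSG00000278677, chr6:27892757-27893149, minus strand), an H2A gene, had 22, 33, 17 and 25 counts in WT, 15, 17, 34 and 18 in shTST, and 31, 25, 31 and 21 in overTST. In CPM it averaged 0.686 ± 0.0815 in WT (SD, n = 4), 0.672 ± 0.210 in shTST and 1.10 ± 0.118 in overTST. The overTST and WT libraries did not overlap, whereas shTST replicate 3 stood at 0.986 and reached the overTST range. The rise in overTST was 1.59-fold (log2 fold change 0.67, SE 0.24, edgeR adjusted p = 0.03), and 0.48 with an adjusted p of 0.142 by edgeR with the length correction. The difference of shTST from WT was -0.02 (SE 0.27, edgeR adjusted p = 0.975). Of its exonic bases 88% also belong to HIST1H3J on the same strand, an H3 gene that had between 0 and 12 counts per library, so the count is uncertain.

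The 2 modified lines were also set against each other, with all 12 libraries in the fit. HIST1H2BK, HIST1H4I, HIST1H2AM and HIST2H2BE were lower in shTST than in overTST, and 0 of 30 tested histone genes were higher. By edgeR 6 of the 30 lay below an unadjusted p of 0.05, against 6254 of all 14883 genes tested. Among all 14883 genes tested, 16.9% were higher in shTST and 16.1% lower, and the 4 of 30 made up 13.3%. Short genes showed a like direction here: of 1051 genes of up to 1000 exonic bases, 14 were higher and 140 lower, with a median log2 fold change of -0.14. With the length correction 0 of the 30 histone genes were called by edgeR.

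HIST1H2BK (ENSG00000197903, chr6:27146418-27146798, minus strand), an H2B gene, had 1.54, 1.54, 1.60 and 1.69 CPM in WT, 1.36, 1.64, 0.870 and 1.29 in shTST, and 1.61, 1.91, 1.97 and 2.27 in overTST. The mean of WT lay between those of the 2 lines, but the libraries of each pair of groups overlapped. The difference between the lines was 0.664-fold (log2 fold change -0.59, SE 0.20, edgeR adjusted p = 0.0227). Without shTST replicate 3, the lowest, it was -0.43 with an edgeR adjusted p of 0.102. Against WT it was -0.31 in shTST and 0.28 in overTST, and neither was called. Other genes share 74.1% of its 50-base stretches.

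HIST1H4I (ENSG00000276180, chr6:27138588-27139881, plus strand) encodes H4, and its 0.784, 1.06, 0.908 and 1.05 CPM in overTST lay above the 0.358, 0.603, 0.580 and 0.664 in shTST. WT ran from 0.460 to 0.7996 and overlapped both. The difference of shTST from overTST was -0.76 (SE 0.27, edgeR adjusted p = 0.0328). Against WT it was 0.68 in overTST (SE 0.27, edgeR adjusted p = 0.0505) and -0.09 in shTST (SE 0.29, edgeR adjusted p = 0.877). Under 2 other scalings and in the fit of all 12 libraries the rise in overTST was called, with edgeR adjusted p of 0.0417 to 0.0497. With the length correction it was not called. Over all 16 alternatives the rise ran from 0.50 to 0.85, with adjusted p of 0.0288 to 0.183 by edgeR or DESeq2. The values of HIST1H4I rest on 10 to 26 counts per library.

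HIST2H2BE (ENSG00000184678, chr1:149884459-149886652, minus strand), the H2B gene with the most counts, had 3.14, 3.47, 2.69 and 2.36 CPM in overTST and 2.11, 2.38, 2.03 and 2.26 in shTST. Only overTST replicate 4 reached into the shTST range. The difference was -0.41 (SE 0.15, edgeR adjusted p = 0.0381), and without overTST replicate 2 it was -0.32 with an edgeR adjusted p of 0.146. In WT the gene averaged 2.56 ± 0.225 CPM (SD, n = 4), and it differed from WT by -0.22 in shTST and by 0.19 in overTST with no call.

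**Figure D3:**
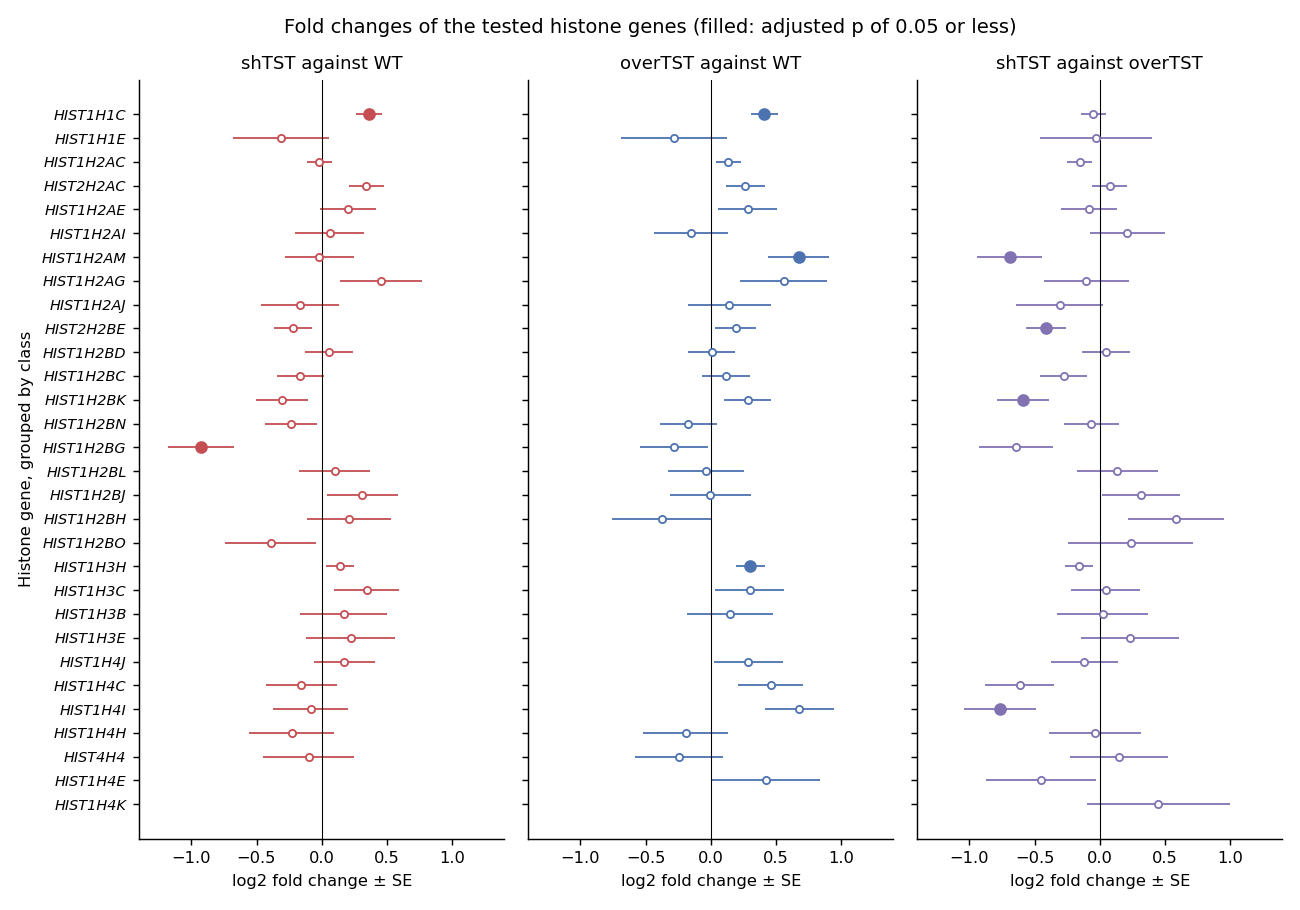
log2 fold change with its SE (horizontal bar) for each tested histone gene in the 3 comparisons, genes grouped by class, with filled points for those at an adjusted p of 0.05 or less. Of 28, 27 and 30 genes tested from left to right, 2, 3 and 4 are filled, and for most genes with few counts the SE is wider than the distance from 0.

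Among the other abundant members, HIST1H2AC (ENSG00000180573, chr6:26124145-26139116, plus strand), an H2A gene, differed little. Its levels were 7.14, 7.49, 8.39 and 8.10 CPM in WT, 7.73, 8.27, 6.49 and 8.20 in shTST and 8.62, 8.94, 8.02 and 8.50 in overTST. The groups overlapped. Its approximate 95% interval was -0.21 to 0.17 (log2) for shTST against WT, -0.05 to 0.32 for overTST against WT and -0.34 to 0.03 for shTST against overTST.

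HIST2H2AC (ENSG00000184260, chr1:149886975-149887364, plus strand), an H2A gene, had 2.25, 2.39, 2.28 and 2.33 CPM in WT and 2.79, 2.95, 2.93 and 3.05 in shTST, with no overlap. The test still did not call it, with a log2 fold change of 0.34 (SE 0.13, edgeR adjusted p = 0.0874). In overTST it had 2.61, 2.67, 3.16 and 2.68 CPM, all above WT, and the log2 fold change was 0.27 (SE 0.15, edgeR adjusted p = 0.179). The direct difference was 0.08, with an interval of -0.19 to 0.34. HIST1H2BD, an H2B gene, averaged 2.12 ± 0.509 CPM in WT (SD, n = 4), 2.18 ± 0.398 in shTST and 2.12 ± 0.239 in overTST, with log2 differences of 0.05, 0.01 and 0.05 in the 3 comparisons. HIST1H2BC, another H2B gene, averaged 1.74 ± 0.288, 1.54 ± 0.163 and 1.87 ± 0.245 CPM in WT, shTST and overTST, with differences of -0.16, 0.11 and -0.28. Neither was called.

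By class, the mean summed levels of H2A, H2B and H1 lay above those of H3 and H4 in every group, with H2B above H1 in WT and overTST and H1 above H2B in shTST. The sums are not scaled for model length, so this order is not one of levels per transcript. H2A genes summed to 14.1 ± 0.423 CPM in WT (SD, n = 4), 14.7 ± 0.870 in shTST and 16.03 ± 0.572 in overTST. The H2B sums were 13.2 ± 0.961, 11.8 ± 1.18 and 13.5 ± 0.498 in the same order. H3 genes summed to 6.73 ± 0.433, 7.72 ± 0.596 and 8.21 ± 0.746. The H4 sums were 4.14 ± 0.690, 4.06 ± 0.503 and 5.01 ± 0.837. In the tests against WT in shTST, 4 of 4 H3 genes had a positive log2 fold change and none was called. Positive values were also held by 1 of 2 H1, 4 of 7 H2A, 4 of 10 H2B and 1 of 5 H4 genes. All classes together had 14 of 28 positive, against 7421 of all 14584 genes tested. In overTST 1 of 2 H1, 6 of 7 H2A, 4 of 9 H2B, 3 of 3 H3 and 4 of 6 H4 genes had a positive one. All classes together had 18 of 27 positive, against 7257 of all 14421 genes tested. Of the 905 tested genes of up to 1000 exonic bases, 660 were positive.

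All 71 genes together summed to 48.3 ± 3.20 CPM in WT (SD, n = 4), 51.1 ± 1.78 in shTST and 56.0 ± 1.11 in overTST. WT ran from 45.9 to 52.8, shTST from 48.9 to 52.9 and overTST from 54.6 to 56.9, so overTST lay above the other libraries and WT and shTST overlapped. On raw library totals overTST overlapped both: the histone share was 0.00530% in overTST replicate 2, its lowest library, against 0.00539% in WT replicate 3 and 0.00539% in shTST replicate 2. Without HIST1H1C the sums were 38.6 ± 2.13, 38.8 ± 1.74 and 43.2 ± 0.277. Short genes in general were higher in overTST, as given above, and the part of gene length in these sums was not tested.

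**Figure D4:**
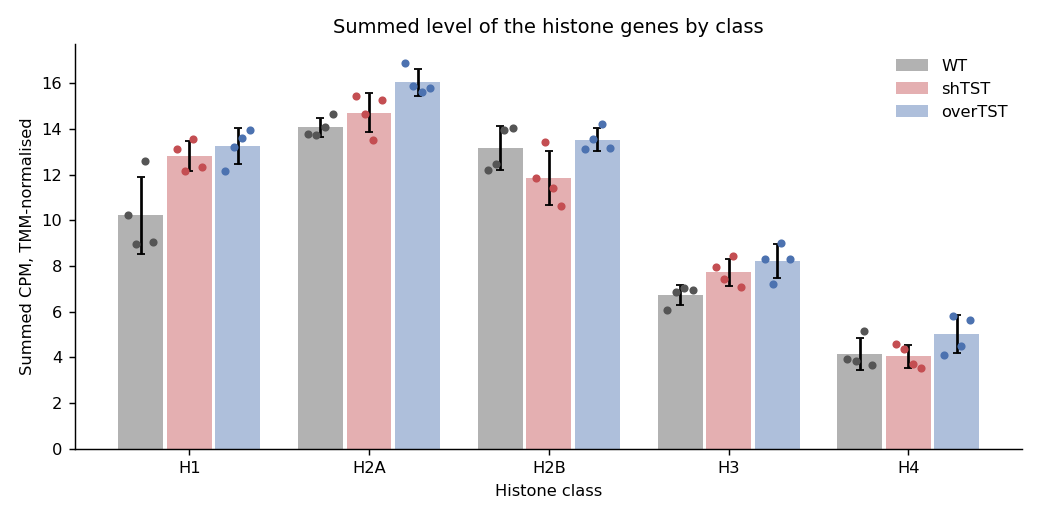
Summed CPM of the histone genes of each class in WT (grey), shTST (red) and overTST (blue), with bars for group means, error bars for SD and points for the 4 libraries. H1 sums average 10.2, 12.8 and 13.2 CPM in WT, shTST and overTST, with WT replicate 3, at 12.6, inside the ranges of both other groups. The H2B sums of the 3 groups overlap as well.

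The fold changes against WT were also read by gene length. In the shortest 10% of all genes tested (median 861 exonic bases) the median log2 fold change of overTST against WT was 0.21, and in the longest 10% (12091 bases) it was -0.17. The same medians for shTST against WT were 0.05 and -0.02. The 16 tested histone genes of up to 1000 bases had a median of 0.21 in overTST, the same as the 905 short genes overall. The 11 longer histone genes had a median of 0.13. In shTST, HIST1H1C and HIST1H2BG were still called after the length correction.

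**Figure D5:**
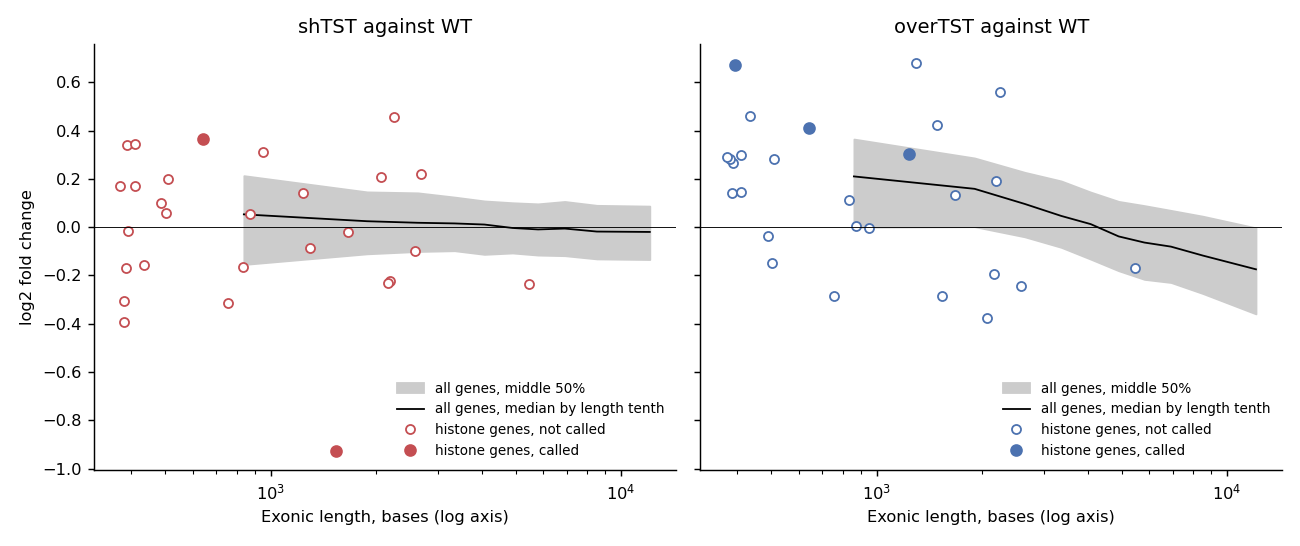
log2 fold change against WT by exonic length (log axis) in shTST (left) and overTST (right), with the median of all genes in each 10% by length as a line, their middle 50% in grey and histone genes as points, filled where called. In overTST the line falls from 0.21 to -0.17, and the called genes HIST1H2AM, HIST1H1C and HIST1H3H lie at 0.67, 0.41 and 0.30.

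Many H2A and H2B genes stand back to back over one short promoter region, so that one region serves a pair. There were 11 such pairs with less than 1000 bases between the gene models, all of one H2A and one H2B gene, with gaps of 218 to 381 bases. The HIST2H2AC promoter printed above lies in the 322 bases between HIST2H2BE and HIST2H2AC, chr1:149886653-149886974, and the HIST1H2BG promoter largely in the 282 bases between HIST1H2BG and HIST1H2AE, chr6:26216693-26216974. Genes of a pair did not always differ from WT in the same direction. In shTST the log2 fold change was -0.22 for HIST2H2BE and 0.34 for HIST2H2AC, and -0.93 for HIST1H2BG and 0.20 for HIST1H2AE, an H2A gene. Of 6 pairs tested in shTST, 2 had opposite signs, and in 5 the H2A gene had the higher value. In overTST the values were 0.19 and 0.27 for HIST2H2BE and HIST2H2AC, and -0.29 and 0.28 for HIST1H2BG and HIST1H2AE, with 2 of 5 pairs of opposite sign. Only HIST1H2BG was called among these 4 genes in the comparisons with WT, and differences within pairs were not tested.

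The genes that make and process histone mRNA were read beside the histone genes. Of 30 genes for histone gene transcription and 3′ processing, 9 were higher (30%, against 6.69% of all genes) and 1 lower (3.33%, against 9.4%) in shTST. In overTST 12 were higher (40%, against 15.7%) and 2 lower (6.67%, against 18.2%). In shTST against overTST 7 were higher and 7 lower (23.3% each, against 16.9% and 16.1%). The smallest p in overTST were those of SNRPF, SNRPG, SNRPD3 and SNRPE (0.44, 0.39, 0.32 and 0.36, edgeR adjusted p = 6.26e-06 to 3.35e-05). SNRPB also rose there by 0.32 (edgeR adjusted p = 5.15e-05). In shTST the rises of SNRPF, SNRPG, SNRPD3 and SNRPE were 0.24, 0.18, 0.19 and 0.21, all called. These genes encode Sm proteins, which are not particular to histone mRNA. SLBP, the hairpin-binding protein, averaged 79.4 ± 3.61 CPM in WT (SD, n = 4), 93.6 ± 3.51 in shTST and 91.3 ± 1.60 in overTST. It rose in shTST (log2 fold change 0.24, SE 0.047, edgeR adjusted p = 0.00144) and in overTST (0.20, SE 0.050, edgeR adjusted p = 0.0029). POU2F1, the factor that binds the octamer, rose by 0.39 in shTST (SE 0.054, edgeR adjusted p = 6.87e-05) and by 0.35 in overTST (SE 0.060, edgeR adjusted p = 8.23e-05). NPAT, the cyclin E-CDK2 target that activates histone genes, averaged 8.35 ± 0.947 CPM in WT, 9.16 ± 1.09 in shTST and 7.17 ± 1.25 in overTST, and was called only between the lines (0.34, SE 0.12, edgeR adjusted p = 0.0251).

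Of 16 genes for export, translation and decay of histone mRNA, 1 was higher and 1 lower in shTST (6.25% each, against 6.69% and 9.4% of all genes). In overTST 3 were higher (18.8%, against 15.7%) and 5 lower (31.2%, against 18.2%). In shTST against overTST 8 were higher (50%, against 16.9%) and 2 lower (12.5%, against 16.1%). ERI1, the exonuclease that trims the hairpin's 3′ end, was not called in any comparison. Genes listed as replication-independent histone genes, most of which give polyadenylated mRNAs, were read at far higher counts. How the mRNA of each listed gene ends, H2AFX included, was not examined. In shTST 4 of 11 tested were higher (36.4%, against 6.69% of all genes) and 0 lower (against 9.4%). In overTST 8 of 11 were higher (72.7%, against 15.7%) and 0 lower (against 18.2%). Of tested genes of up to 1000 exonic bases, 17.1% were higher in overTST and 2.32% lower. The length correction was not read for any of the gene lists. Between the lines 1 was higher in shTST (9.09%, against 16.9%) and 5 lower (45.5%, against 16.1%). H3F3A, which encodes the replacement histone H3.3, rose by 0.20 in shTST (SE 0.050, edgeR adjusted p = 0.0088) and by 0.35 in overTST (SE 0.053, edgeR adjusted p = 2.09e-05). H2AFX, the H2A variant marked at DNA breaks, rose by 0.33 in overTST (SE 0.055, edgeR adjusted p = 7.41e-05) and differed by -0.01 in shTST (edgeR adjusted p = 0.939).

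DNA replication genes give the setting in which histone genes are normally on. Of 38 S phase genes, 18 were higher and 0 lower in shTST (47.4% and 0%, against 6.69% and 9.4% of all genes), with a median log2 fold change of 0.14. In overTST 5 were higher and 4 lower (13.2% and 10.5%, against 15.7% and 18.2%). Directly compared, 14 were higher in shTST than in overTST and 2 lower (36.8% and 5.26%, against 16.9% and 16.1%). PCNA, the sliding clamp of DNA polymerase, rose by 0.32 in shTST (SE 0.047, edgeR adjusted p = 0.000106) and by 0.26 in overTST (SE 0.052, edgeR adjusted p = 0.000394). UHRF1, which keeps DNA methylation at replication forks, rose by 0.47 in shTST (SE 0.060, edgeR adjusted p = 2.89e-05). Of 22 histone chaperone genes, 7 were higher and 1 lower in shTST (31.8% and 4.55%, against 6.69% and 9.4% of all genes). In overTST 8 were higher and 4 lower (36.4% and 18.2%, against 15.7% and 18.2%), and between the lines 4 were higher in shTST and 2 lower (18.2% and 9.09%, against 16.9% and 16.1%). NASP, which carries H1 and H3-H4, rose by 0.32 in both (SE 0.051 and 0.052, edgeR adjusted p = 0.000271 and 4e-05). The tested histone genes had a median log2 fold change of 0.02 in shTST.

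The 60 histone genes not named above by the counting rule averaged between 0 and 43 counts, the highest being HIST1H2BN, an H2B gene whose model shares 7.2% of its exonic bases with others. The rule names every called gene, so by its construction none of these was called in any of the 3 comparisons. For those tested, the SE of the log2 fold change reached 0.55 (HIST1H4K, an H4 gene, shTST against overTST), so that for such a gene a change of the size seen in HIST1H1C was not detectable at this depth.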

How the data were processed

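RNA from 12 HepG2 libraries (4 WT, 4 shTST, 4 overTST) was sequenced. The authors deposited raw read counts per gene, 1 table per library. Per the labels and submitters' processing notes, the tools were Trimmomatic 0.36, STAR 2.5.2b and featureCounts of Subread 1.5.2 on GRCh38. RNA selection and strand use are not given in the sources used here. Library totals ranged from 22911380 to 45120508 counts, and counting error limits the precision of genes with few counts.

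Gene identifiers were matched to GENCODE 29, whose ends equalled those of the files for 70 of the 71 members. The members and gene lists were chosen with earlier results of these data known. Counts were filtered with edgeR's default, scaled by the trimmed mean of M values and tested with edgeR 4.0.16 (R 4.3.3) quasi-likelihood tests, two-sided, with Benjamini-Hochberg adjustment over all genes and a threshold of 0.05. Only the 8 libraries of a line and WT entered its comparison with WT, and the 2 lines were compared in a fit of all 12. Unless stated, adjusted p-values are from this test, and approximate 95% intervals treat the estimate as normal with its SE. CPM values are for all 12 libraries scaled together. No test was made on sums over genes.

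Named genes were every histone gene with a mean of at least 100 counts, every one called in any comparison, and the 3 others with the highest mean. From each list, up to 4 called genes with the smallest p could be named. SLBP and POU2F1 in overTST, NPAT, ERI1, H2AFX in shTST, HIST1H1E, HIST1H1B, HIST1H1T, HIST1H4J, HIST1H4K, HIST1H2BN and HIST1H2AE were named outside the rule after their values were seen. So were SNRPB in overTST and SNRPG, SNRPD3 and SNRPE in shTST. The alternatives were DESeq2 1.42.0, other scalings and filters, other sets of libraries, a replicate block, a length correction (a lowess curve of each library's log2 deviation on log exonic length, as an offset), and leaving out each library. The fits were tested on simulated data. GENCODE 29 transcripts were searched for the stem-loop and shared 50-base stretches, and RefSeq promoters for motifs.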

Additional observations from a re-analysis of the deposited data

Results flagged for a closer look

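In 60 sets of 4 libraries (11 named genes and 9 sums in 3 groups), 5 held a library far from the other 3 by Dixon's test, and chance alone marks about 1 set in 20. HIST1H2AM in shTST replicate 3 was at 0.986 CPM, with the other shTST libraries at 0.537 to 0.597. HIST1H2BC in WT replicate 3 was at 2.17 CPM, against 1.57 to 1.63 in the other WT libraries. HIST2H2AC in overTST replicate 3 was at 3.16 CPM, against 2.61 to 2.68. The H3 sum in WT replicate 1 was 6.09 CPM, below the 6.87 to 7.03 of the others. The sum of the genes with no stem-loop in their model, which includes HIST1H1C, was 22.2 CPM in WT replicate 3, against 18.5 to 18.7 in the other WT libraries.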

How the results depend on the processing

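Alternatives changed few directions but many calls, since most called histone genes lie near the threshold. In shTST against WT, 1 gene was higher and 1 lower. DESeq2, which gave HIST1H2BG no adjusted p, and a filter of over 1 CPM in 4 libraries, which removed HIST1H2BG, left 0 lower, and leaving out a library gave 0 to 1 in each direction (0 in both without WT replicate 4). In overTST against WT, the 3 higher genes became 1 with DESeq2, 1 with no filter and 0 with the length correction, with or without the replicate block, and leaving out a library gave 1 to 3. It became 4, with HIST1H4I added, under RLE or upper-quartile scaling and in the fit of all 12 libraries, and 2 with the filter of over 1 CPM. In shTST against overTST, the 4 lower genes became 1 with DESeq2, 1 with no filter and 0 with either length correction, and leaving out a library gave 1 to 4. In each, HIST1H1C or HIST1H2BK was the gene that DESeq2 still called. The replicate numbers did not pair the libraries: same-numbered libraries correlated at -0.05 to 0.08 in their deviations. A replicate block kept the counts at 1 and 1, 3 and 0, and 0 and 4 higher and lower in the 3 comparisons.

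Summed CPM without extended models was 25.2 in WT, 28.7 in shTST and 30.3 in overTST, and without HIST1H1C 38.6, 38.8 and 43.2. On raw library totals the overTST sum was 53.98. Signs turned for named genes only in comparisons where they were not called. With the length correction, without and with the block, HIST1H1C in shTST against overTST was 0.093 and 0.092, and in overTST against WT HIST1H2AC was -0.026 and -0.025, HIST1H2BC -0.066 and -0.074, and HIST1H2BD -0.17 and -0.16, with -0.016 under no filter. Upper-quartile scaling gave HIST1H2AC 0.0015 and HIST1H2AM 0.0038 in shTST against WT. Leaving out a library gave in shTST against WT -0.057 to 0.059 for HIST1H2AC, -0.27 to 0.079 for HIST1H2AM, -0.035 to 0.22 for HIST1H2BD and -0.18 to 0.085 for HIST1H4I, and for HIST1H2BD -0.081 to 0.17 in overTST against WT and -0.012 to 0.17 between the lines. Apart from the filter, the length correction and the left-out libraries, whose construction shows what changed, the cause was not tested. Low counts limit most of these genes.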

Other observations

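The 19 histone pseudogenes that carry such names had few counts, apart from HIST2H2BC with 21 to 51 per library and HIST2H2BD with 2 to 13. HIST2H2BC averaged 0.925 CPM in WT, 1.05 in shTST and 1.12 in overTST, a level near that of the protein-coding HIST1H2BG. AL031777.3, the model that contains HIST1H3D, had 5 to 22 counts per library while HIST1H3D had 0 in all 12.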
